A study of Homo sapiens with 20 samples.

Results

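The HIF1A ChIP-seq peak lists of 4 human carcinoma lines under hypoxia joined into 19628 regions, and 448 of these were called in exactly 3 of the 4 lines. Peaks that shared at least 1 bp were joined, and a region was kept when its peaks came from 3 lines and the fourth list held none there. The 448 regions made up 2.28% of all regions, beside 232 regions called in every line, 1231 called in 2 lines and 17717 called in a single line. The regions were thus chosen by the hypoxia peak calls themselves, so the calls and their signal are described without a test, and only sequence, position and the normoxia lists were compared between sets.

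HCT116 and RKO are colorectal carcinoma lines, and A549 and H460 are lung carcinoma lines. Cells of each line spent 24 h under normoxia or under hypoxia (1% O2), HIF1A-bound chromatin was immunoprecipitated, and the 2 biological replicates of each line and condition were merged by the authors before peaks were called. The 4 groups used for the regions are therefore the hypoxia lists of the 4 lines, each a single merged list of an established, otherwise unmodified line, and the 4 normoxia lists serve as their background. No list gives a spread between replicates, so every interval below covers counting error over regions only, and regions are not replicates of a condition. The labels of the inputs conflict: the RKO input is described as A549, the A549 input as RKO, and the source of every input is given as HCT116. The peak lists hold no expression marker, so the identity of the lines was not analysed here.

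HIF1A is the oxygen-regulated subunit of the HIF-1 transcription factor. In normoxia it is hydroxylated by the EGLN prolyl hydroxylases and degraded through VHL, and in hypoxia it accumulates, pairs with ARNT and binds hypoxia response elements. The core of such an element is ACGTG or GCGTG, and its best known target genes act in glycolysis, glucose uptake, mitophagy and pH regulation.

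The regions lay at several of these genes, and the sequence near the centre of each printed one matches this core. The windows below hold 30 bases around the ACGTG or GCGTG nearest to the centre of the region, which is in capitals, and were chosen to show strong regions and known hypoxia genes for each line without the call. All are from the GRCh37 reference, 5′ to 3′ on the strand that reads ACGTG or GCGTG.
BNIP3 promoter, chr10:133795543-133795572, minus strand, no call in RKO: cgcacgcgccgcACGTGccacacgcacccc
STC2 upstream, chr5:172756549-172756578, minus strand, no call in RKO: ggcgcgggggagACGTGagcgtgcacacgt
SLC2A3 intron, chr12:8123409-8123438, minus strand, no call in RKO: gcagcggccgggACGTGccgtgtggcacgc
PKM intron, chr15:72522854-72522883, plus strand, no call in RKO: gcgggggagcggACGTGaccagcaagcagg
SLC2A1 intron, chr1:43423963-43423992, plus strand, no call in A549: aggtcgtgtgcgACGTGccgctcccgggcc
PFKL intron, chr21:45720261-45720290, minus strand, no call in A549: cggaggccgagaACGTGgccggccgcacgt
WSB1 promoter, chr17:25621026-25621055, minus strand, no call in A549: ccgacgcacgggACGTGatctccccggccc
P4HB promoter, chr17:79818981-79819010, plus strand, no call in A549: cgcgcgtgtcaaGCGTGcggcggcggccgt
ENSG00000225489 exon, chr9:6716336-6716365, plus strand, no call in H460: ttagagagaggaACGTGactggaagctccc
GSE1 intron, chr16:85429293-85429322, minus strand, no call in H460: aggggagggcggACGTGacagagggaggga
PPP4R3B-DT exon, chr2:55844997-55845026, minus strand, no call in H460: ctcgcggcgcagGCGTGgacggggagatcg
SPAG4 exon, chr20:34205475-34205504, plus strand, no call in HCT116: ccctggcaggagACGTGctggtcagcatgt
NFIL3 intron, chr9:94185669-94185698, plus strand, no call in HCT116: ccagccaggactACGTGccggcgcgaaggc

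The next sequences are whole regions on the plus strand, with every ACGTG and GCGTG, or CACGT and CACGC on the other strand, in capitals. They show a pair of neighbouring GBE1 regions that lack the call in different lines, and a region with 6 motifs.
GBE1 intron, whole region, chr3:81810149-81810337, plus strand, no call in HCT116: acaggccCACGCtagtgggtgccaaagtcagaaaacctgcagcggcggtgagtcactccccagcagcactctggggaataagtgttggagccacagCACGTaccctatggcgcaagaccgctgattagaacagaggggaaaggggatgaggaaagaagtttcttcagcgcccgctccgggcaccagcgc
GBE1 upstream, whole region, chr3:81810821-81810975, plus strand, no call in RKO: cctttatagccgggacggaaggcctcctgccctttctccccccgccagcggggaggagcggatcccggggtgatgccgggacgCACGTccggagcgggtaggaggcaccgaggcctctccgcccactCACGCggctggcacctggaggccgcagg
BNIP3 promoter, whole region, chr10:133795484-133795634, plus strand, no call in RKO: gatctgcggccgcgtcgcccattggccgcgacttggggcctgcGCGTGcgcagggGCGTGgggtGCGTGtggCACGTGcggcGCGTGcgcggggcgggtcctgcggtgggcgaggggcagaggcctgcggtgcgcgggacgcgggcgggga

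The line without the call was most often RKO or A549. RKO was missing at 152 regions (33.9%, 95% Wilson interval 29.7 to 38.4), A549 at 141 (31.5%, 27.3 to 35.9), H460 at 82 (18.3%, 15.0 to 22.1) and HCT116 at 73 (16.3%, 13.2 to 20.0). RKO had the longest hypoxia list, with 9171 peaks, and was still the line most often missing. Of the regions called in the other 3 lines, RKO was also called at 60.4%, A549 at 62.2%, H460 at 73.9% and HCT116 at 76.1%. The lists did not have equal thresholds, since a peak had to exceed its input 7-fold for HCT116, 6-fold for RKO, 13-fold for A549 and 14-fold for H460. The authors adjusted these thresholds to control for the immunoprecipitation efficiency of each line, from tags in the peaks that all lines shared. Asking 14-fold of every list sets this adjustment aside and can only drop peaks, so no missing call is regained. Under it, 231 regions remained in exactly 3 lines, of which 131 lacked RKO, 54 HCT116, 31 A549 and 15 H460. How much of the missing calls at A549 and H460 comes from their thresholds was not tested.

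The signal of the regions lay between that of the 4-line and the 2-line regions in every list. Signal is the normalized tag count, the number of tags in a peak in a library scaled to 10000000 tags. In HCT116 the median was 6.75, against 11.8 in 4-line and 4.42 in 2-line regions. In RKO it was 5.98 in 296 regions, against 9.795 and 4.63. The medians in the lung lines were higher, at 14.8 in 307 regions in A549, against 23.0 and 8.16, and at 15.4 in 366 regions in H460, against 27.0 and 9.50. The lowest signal of a region was 2.39 in the RKO list, 2.45 in HCT116, 3.01 in A549 and 3.44 in H460, each above the lowest peak of its list.

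**Figure D1:**
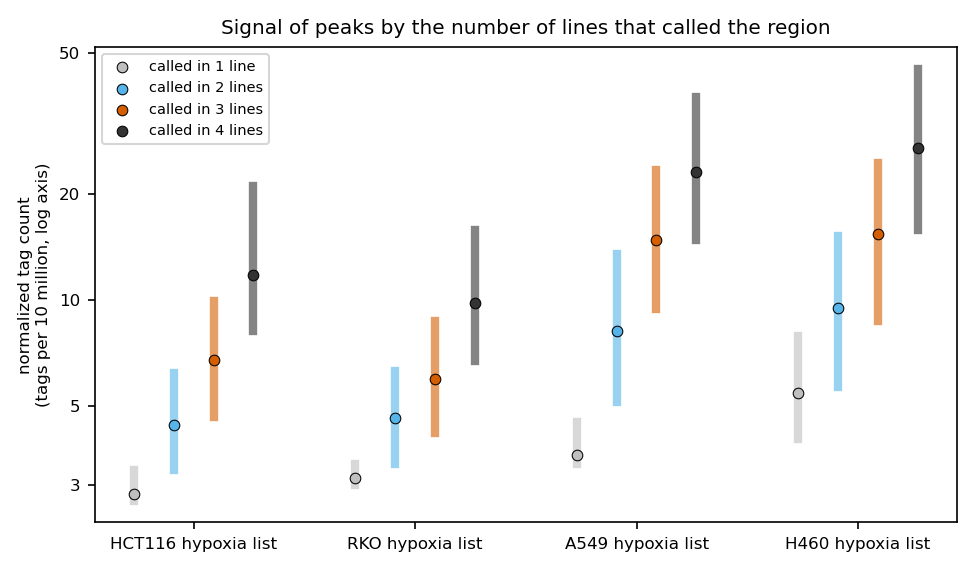
Normalized tag count (tags per 10000000, log axis) of the regions called in 1, 2, 3 or 4 lines, in each hypoxia list; points are medians and bars run from the first to the third quartile. In each list the 3-line median lies between the 2-line and 4-line medians, for example 15.4 between 9.50 and 27.0 in H460.

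A part of the regions was as strong as the 4-line regions in each line that called them. In 23 of 448 regions (5.13%) the signal was above the 4-line median in all 3 lists, and 14 of these lacked RKO, 4 lacked H460, 3 lacked A549 and 2 lacked HCT116. At the other end, 22 regions had a peak below the 25th percentile of a list, against 2 of the 232 4-line regions. Ranked by percentile within its own list, the H460 peak was the weakest of the 3 at 47 of the 73 regions without HCT116, 76 of the 152 without RKO and 90 of the 141 without A549. Where H460 had no call, the HCT116 peak ranked weakest at 53 of 82 regions. The percentiles depend on the length of the lists, since H460 had the fewest peaks (3877), HCT116 had 3996, A549 5408 and RKO 9171, and what part list length has in these counts was not tested.

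The 5 strongest regions without a call in RKO, by mean percentile within the lists, lay at BNIP3, SLC8A3, EGLN3, SLC2A3 and STC2. At the promoter of BNIP3, a mitophagy receptor, the region at chr10:133795484-133795634, 87 bp upstream of the start site, had a signal of 32.7 in HCT116, 59.3 in A549 and 96.0 in H460. Its 6 core motifs are those in capitals above. An intronic region in EGLN3, which encodes a HIF prolyl hydroxylase, had 25.3 in HCT116, 80.3 in A549 and 71.8 in H460. It lay 524263 bp from the outermost annotated start of EGLN3. Starts of other transcripts, which can lie much nearer, were not used for this distance. The gene also held a region called in all 4 lines, RKO included. Tag counts are lower in the whole HCT116 list than in the lung lists, and by percentile within its list the BNIP3 peak stood at 99.3 in HCT116, 99.4 in A549 and 99.7 in H460.

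The other 3 of these regions also ranked high in each list that called them. An intronic region of SLC2A3, the neuronal-type glucose transporter GLUT3, lay 48184 bp from the outermost annotated start of the gene. Its signal was 26.9 in HCT116, 76.9 in A549 and 47.1 in H460. A region in the untranslated part of SLC8A3, a sodium-calcium exchanger gene, had 27.4, 56.7 and 83.1 in the same order of lines. At STC2, a secreted glycoprotein gene, a region 1115 bp upstream of the start site had 26.1, 48.7 and 52.8. These 3 regions stood above the 4-line median of each line that called them. The SLC2A3 peak had a percentile of 98.9 in HCT116 and 97.8 in H460, so the order of these lines by percentile was not that by tag count.

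Regions at 2 glycolytic genes, TPI1 and PKM, lacked the RKO call as well. The region in an intron of TPI1, which interconverts the triose phosphates, had 11.3 in HCT116, 30.1 in A549 and 25.1 in H460. The nearest RKO peak lay 4291 bp away. The intronic region of PKM, the pyruvate kinase gene, lay 1277 bp into the gene and had 7.6, 25.8 and 28.5. The PKM gene also held a region called in all 4 lines, RKO included. PDK3, a kinase that restrains pyruvate dehydrogenase, carried a region 5 bp from its start site with 10.2, 12 and 18.2. At FOXO3, a stress-response transcription factor gene, the values were 8.46 in HCT116, 12.5 in A549 and 7.28 in H460.

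Regions without a call in A549 included one in the gene of the main glucose transporter. In SLC2A1, which encodes GLUT1, the intronic region at chr1:43423901-43424069 had a signal of 14.7 in HCT116, 18.5 in RKO and 24.5 in H460. The nearest A549 peak lay 4346 bp from this region, and the gene also held a region called in 2 lines. In PFKL, the liver-type phosphofructokinase gene, a region 338 bp into the gene had 16.3 in HCT116, 9.87 in RKO and 20.0 in H460. A549 did have a peak of 5.15 near the PFKL region, but 435 bp away, so the gene was not without a call in A549.

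The strongest regions without A549 were at other promoters. At WSB1, which encodes a hypoxia-inducible ubiquitin ligase subunit, the signal was 15.7 in HCT116, 12.1 in RKO and 40.0 in H460, centred 74 bp upstream of the start site. The P4HB promoter, at the gene of the protein disulfide isomerase that is also part of collagen prolyl hydroxylase, had 19.9, 8.82 and 38.6. The start of NGLY1, the cytosolic peptide N-glycanase gene, had 16.2, 8.67 and 48.3. H460 had the highest tag count at each of these regions. The median of the whole list was also higher in H460 (6.47) than in HCT116 (3.07) and RKO (3.29), and its part here was not tested. By percentile H460 was the lowest at WSB1 (96.6, against 96.7 in HCT116 and 98.4 in RKO) and at P4HB (96.3, against 97.9 and 96.9).

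Histone demethylase genes were among the regions without A549 too. The region at KDM6B, an H3K27 demethylase gene, had 12.9 in HCT116, 12.1 in RKO and 33.4 in H460. That at KDM7A, which removes methyl groups from H3K9 and H3K27, had 7.11, 7.47 and 15.4. BHLHE41, a circadian repressor gene, had a weaker region, with 3.56, 3.74 and 5.86.

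Regions without a call in H460 had the lowest median signal of any group in their lists, at 5.89 in HCT116, 5.38 in RKO and 12.35 in A549. The first by rank was in an exon of the noncoding gene ENSG00000225489 on chromosome 9, with 17.5 in HCT116, 14.5 in RKO and 27.9 in A549. An intronic region of GSE1 had 15.1, 11.2 and 35.4, and a region at the start of TNFRSF10D, a decoy receptor for TRAIL, had 12.8, 16.6 and 31.4. A549 had the highest tag count at each of them, while by percentile RKO was highest, at 99.0, 98.2 and 99.3. The region at the shared start of RUVBL2 and GYS1, the muscle glycogen synthase gene, had 6.38, 7.77 and 21.3.

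At 73 regions HCT116 alone had no call. The first by rank lay in the first intron of GBE1, the glycogen branching enzyme gene, with 29.1 in RKO, 52.6 in A549 and 48.9 in H460. SPAG4, a nuclear envelope gene, had a region with 8.67 in RKO, 35.4 in A549 and 60.9 in H460. NFIL3, a bZIP repressor gene, had 14.1, 23.0 and 33.2, with an HCT116 peak of 2.58 at 251 bp. The region 13 bp upstream of CA9, a cell-surface carbonic anhydrase that regulates pH, had 4.78 in RKO, 51.5 in A549 and 23.7 in H460.

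**Figure D2:**
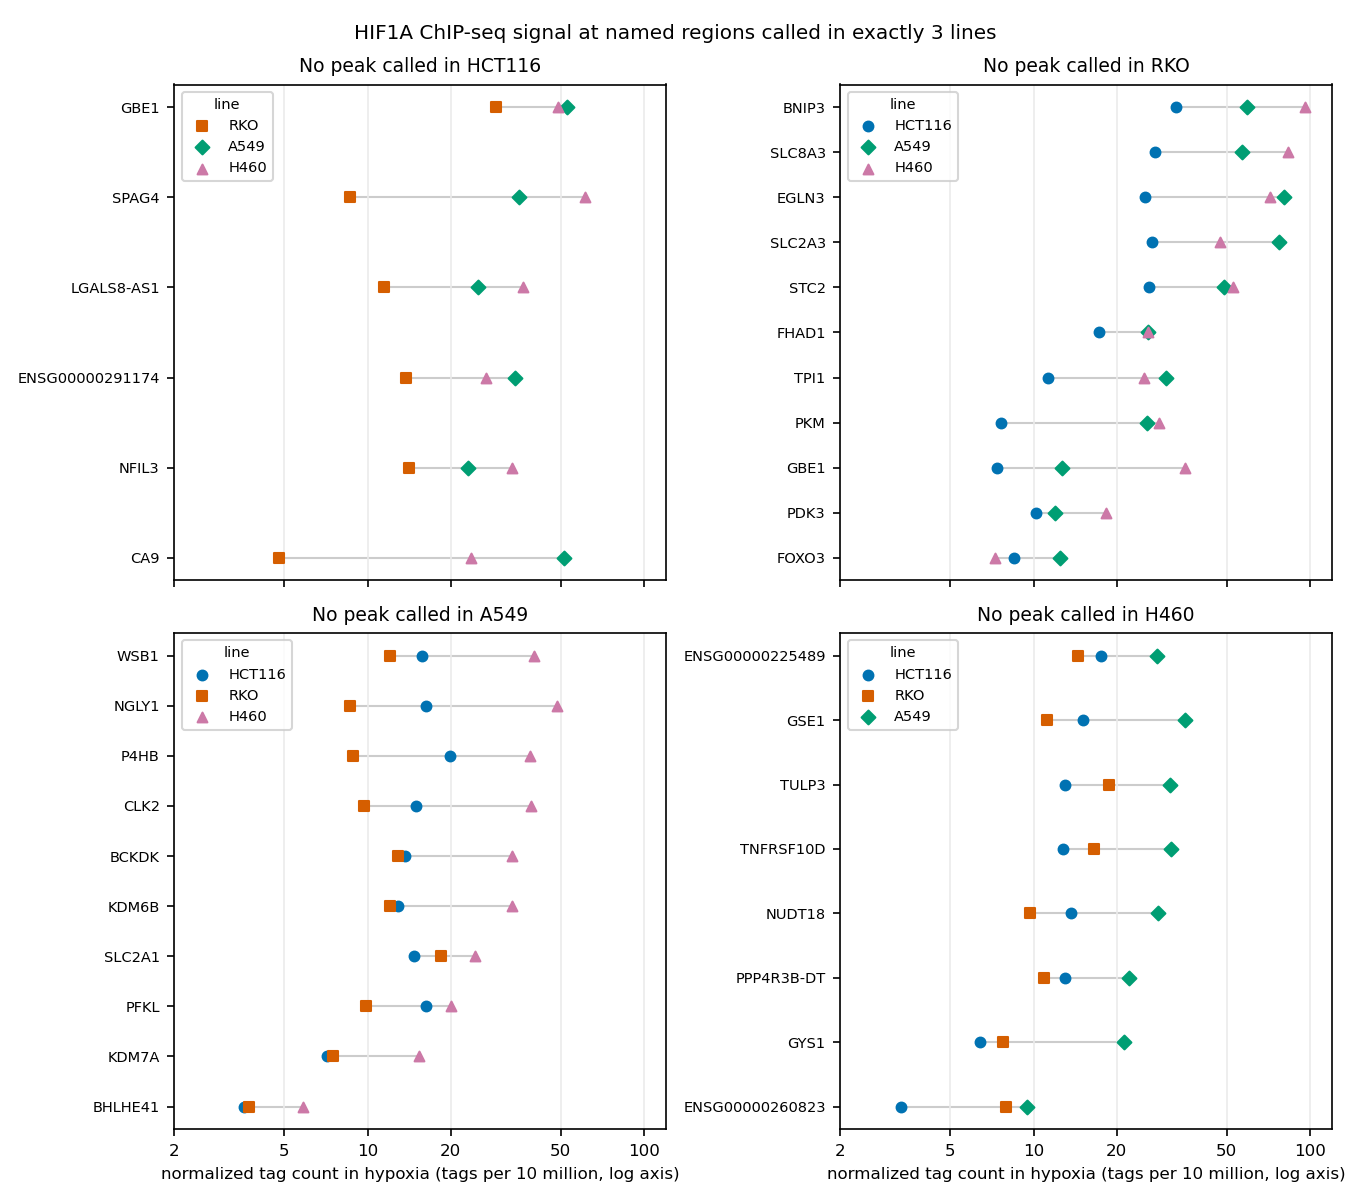
Normalized tag count in hypoxia (tags per 10000000, log axis) at named regions with a core motif, in a panel for each line without a call; symbols are the 3 lines that called the region, and each row is 1 region, labelled by the listed, host or nearest gene. Tag counts differ between whole lists (4-line medians from 9.795 in RKO to 27.0 in H460), so the order of the symbols in a row is not an order of rank within the lists.

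GBE1 held 2 of the regions, 484 bp apart, with different lines missing. The intronic region at chr3:81810149-81810337 had no HCT116 call, and the region at chr3:81810821-81810975, centred 104 bp upstream of the start site, had no RKO call and had 7.36 in HCT116, 12.7 in A549 and 35.2 in H460. Taken as a gene, GBE1 thus had a hypoxia peak in each of the 4 lines. In all, 5 pairs of the regions lay within 10000 bp of each other, and 1 of these, between NEMP1 and NAB2, lacked the same line.

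A missing call was rarely a peak just beside the region. A peak of the missing line lay within 500 bp at 10 of 448 regions, within 1000 bp at 24 and within 10000 bp at 67. The median distance was 81028 bp for HCT116, 81082.5 bp for RKO, 96988 bp for A549 and 98878.5 bp for H460. Just outside the definition, the region at the noncoding gene ENSG00000260823, near the metallothionein gene MT2A, had an H460 peak of 5.26 that touched its end without sharing a base. At PPP4R3B-DT an H460 peak of 39.6 lay 32 bp away, beside values of 13 in HCT116, 10.9 in RKO and 22.1 in A549. Just inside it, the TATDN2 region was joined by an overlap of 1 bp and had 2.70 in HCT116, 3.29 in RKO and 4.25 in H460.

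Of the 126 genes in 11 lists of HIF-related genes, 14 (11.1%) had a 3-line region within 2500 bp of the start site, against 1.15% of all 38878 genes. The 38878 genes are protein-coding and long noncoding RNA genes, while the lists hold protein-coding genes only, so the sets are not alike. Over the same lists, 21 genes had a 4-line and 15 a 2-line region there. These counts have no share over all genes beside them, and the sets differ in size (232 and 1231 regions), so they are not compared. The lists were drawn up with results of these data known, so the share is a description. Of 19 glycolytic genes 3 had such a region (PFKL, TPI1 and PKM) and 9 had a 4-line region. PFKP and PFKFB3 had a 3-line region within the gene body instead, and PFKP also held a region called in all 4 lines. PFKP, the platelet-type phosphofructokinase gene, had 9.20 in HCT116, 26.4 in A549 and 18.6 in H460, and PFKFB3, which makes the activator of phosphofructokinase, had its highest value in A549 (76.2), with 21.2 in RKO and 15.6 in H460.

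In the other lists, 3-line regions near a start site were found at 2 of 7 glycogen genes (GBE1 and GYS1), 2 of 11 genes of the mitochondrial switch and mitophagy (BNIP3 and PDK3), 2 of 17 histone demethylase and dioxygenase genes (KDM6B and KDM7A) and 2 of 16 genes of mTOR and growth inhibition (FOXO3 and BHLHE41). One gene each stood for the 6 glucose and lactate transporters, the 4 pH genes and the 10 secreted factors, namely SLC2A1, CA9 and STC2. No gene of the oxygen sensing list (0 of 11), collagen remodelling (0 of 15) or the HIF partner factors (0 of 10) had one near its start site. With a share of 1.15% over all genes, lists this short would seldom hold one, so these counts of 0 are not a result. Within the gene body, EGLN3 of the oxygen sensing list and LOXL2 of the collagen list had a 3-line region. LOXL2 had 7.97 in HCT116, 8.97 in RKO and 39.7 in A549.

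The core motif was present in nearly all of the regions. Motifs were counted on both strands in the 200 bp around the centre. ACGTG or GCGTG was found in 425 of 448 regions (94.9%, 92.4 to 96.6), against 24.3% of windows of the same length 2000 bp to either side and 44.0% of all hypoxia regions. The share was 97.8% in 4-line and 88.1% in 2-line regions. The difference from the 2-line regions was 6.81 points (95% Newcombe interval 3.83 to 9.37), while that from the 4-line regions was -2.98 points and its interval reached 0 (-5.72 to 0.28). In windows of 100 bp the difference from the 4-line regions was -7.07 points (-10.9 to -2.75).

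The base that opens the core differed between the 3-line and the 4-line regions. ACGTG was found in 76.8% of the 448 regions, 91.4% of 4-line regions and 65.9% of 2-line regions. The difference was -14.6 points (-19.7 to -8.92) from the 4-line and 10.9 points (6.03 to 15.5) from the 2-line regions. GCGTG ran the other way against the 4-line regions, with 58.0% against 47.4% and a difference of 10.6 points (2.72 to 18.4), which took in 0 in windows of 100 bp (7.32 points, -0.48 to 14.8) and with a local fold of at least 6 (7.57 points, -0.93 to 15.9). Within 2500 bp of a start site ACGTG was found in 74.4% of the 3-line and 91.8% of the 4-line regions, a difference of -17.4 points (-23.5 to -10.6). Farther away the shares were 82.0% and 90.2% and the interval of the difference took in 0 (-17.1 to 3.27). Each window with CACGTG, found in 14.1% of the regions, counts for ACGTG on both strands.

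Other motifs were counted in the same windows. The control motif ACGAG or GCGAG, which has A in place of the T of the core, was found in 54.2% of the regions. It was found in 61.6% of 4-line and 47.8% of 2-line regions. It thus differed by -7.40 points (-15.0 to 0.46) from the 4-line and by 6.39 points (0.99 to 11.7) from the 2-line regions, where the core itself differed by 6.81. CACAG was found in 43.5%, close to the 44.5% of the flanking windows. GGGCGG, the GC box bound by SP1-type factors, was found in 48.7% of the regions and 58.2% of 4-line regions, a difference of -9.53 points (-17.2 to -1.61). TGANTCA, the site of AP-1 factors, was found in 12.3% and 10.8%.

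**Figure D3:**
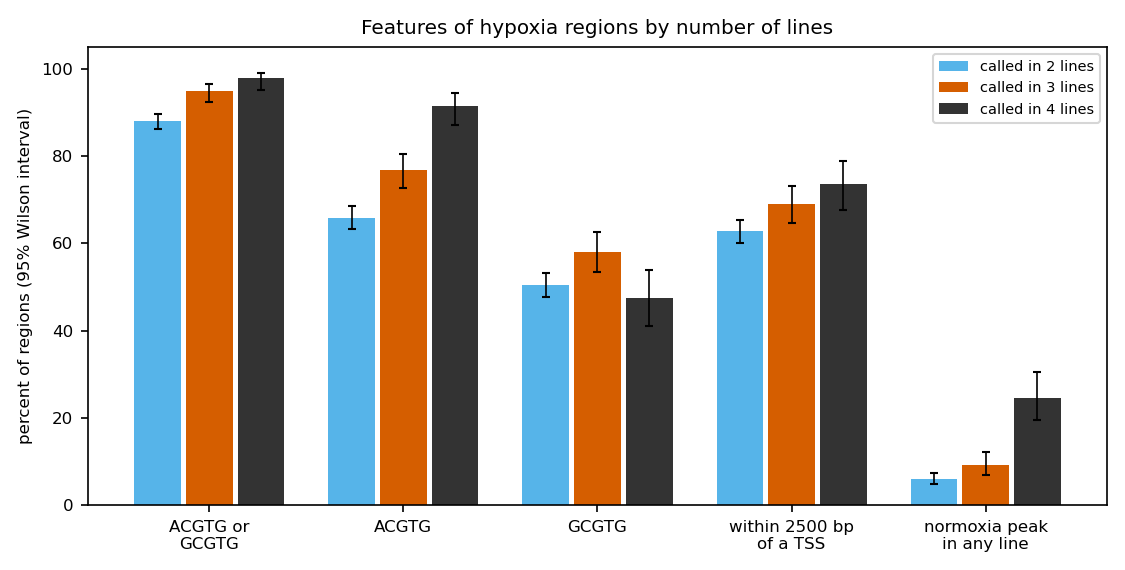
Percent of regions with each feature among those called in 2, 3 or 4 lines, with 95% Wilson intervals; motifs were counted on both strands in 200 bp at the centre. ACGTG rises from 65.9% through 76.8% to 91.4%, while GCGTG is highest in the 3-line regions, at 58.0%.

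The motif sat at the centre of the regions. In the 425 regions with a core, the nearest one was a median of 11 bp from the centre and within 25 bp in 78.8%, against 88.5% in 4-line regions, 69.9% in 2-line regions and 27.1% in flanking windows with a core. At this nearest core the first base was A in 64.7%, against 80.2% in 4-line regions and 31.7% in the flanks. The base after the core was C in 51.5% (19.7% in the flanks) and the base before it T in 38.8% (14.7%). At least 2 cores were found in 269 regions. The mean number of cores per window was 2.23, against 2.29 in 4-line and 1.86 in 2-line regions. The part of this number in the ACGTG shares was not tested.

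**Figure D4:**
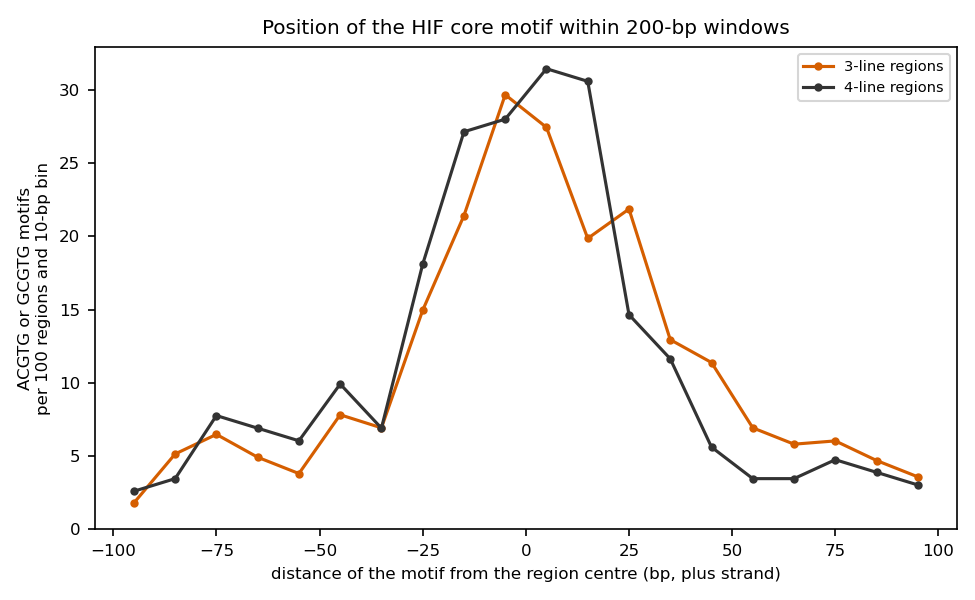
Number of ACGTG or GCGTG motifs per 100 regions in each 10-bp bin, against the distance from the region centre in bp on the plus strand, for 3-line and 4-line regions. Both sets peak within 25 bp of the centre.

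Most of the regions lay near a transcription start site (TSS). Of the 448 regions 309 (69.0%, 64.5 to 73.1) were within 2500 bp of a gene's TSS, against 27.0% of all hypoxia regions, and the median distance was 501.5 bp. The share was 73.7% in 4-line regions, a difference of -4.73 points whose interval took in 0 (-11.6 to 2.55), and 62.8% in 2-line regions, a difference of 6.18 points (1.01 to 11.1), which took in 0 at a distance of 1000 bp (4.95 points, -0.42 to 10.2). By the GENCODE annotation 153 of the regions lay in introns, 136 between genes, 96 over an untranslated exon part, 41 in noncoding exons and 22 in coding exons. The core motif was found in 94.8% of the regions near a TSS, and its share there and farther away differed by -0.14 points, with an interval that took in 0 (-4.15 to 5.22). GGGCGG was found in 60.5% of the near and 22.3% of the distant regions, and TGANTCA in 4.53% and 29.5%, so the near regions carried the AP-1 site less often (-25.0 points, -33.2 to -17.4). The median signal near and away from a TSS was 12.9 against 17.5 in A549 and 14.6 against 16 in H460, while HCT116 had 6.81 against 6.75 and RKO had 6.13 against 5.68.

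The share near a TSS depended on which line had no call. It was 82.3% (75.1 to 87.7) without A549, 75.3% (64.4 to 83.8) without HCT116, 70.7% (60.1 to 79.5) without H460 and 52.6% (44.7 to 60.4) without RKO. The regions without RKO differed from those without A549 by -29.6 points (-39.2 to -19.1), from those without HCT116 by -22.7 points (-34.3 to -9.25) and from those without H460 by -18.1 points (-29.9 to -4.96). Regions without RKO lay in introns in 67 of 152 cases and over an untranslated part in 14, while 43 of the 141 regions without A549 lay over an untranslated part. Their median TSS distance was 1691 bp without RKO and 206 bp without A549.

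These differences held under some shared thresholds and not under another. With a local fold of at least 6 in each list, the share without RKO differed by -32.2 points (-42.8 to -19.9) from that without A549, by -21.1 (-33.9 to -6.37) from that without HCT116 and by -23.3 (-36.3 to -7.75) from that without H460. With a single signal floor of 2.63 the same differences were -29.9, -22.4 and -18.3 points, all leaving out 0. When all lists were held to a 14-fold excess over input, the share without RKO was 64.9% and no pair of lines differed by an interval that left out 0, the difference between RKO and A549 being -12.5 points (-26.6 to 6.32) and that between RKO and H460 11.6 points (-11.9 to 36.0). The lists themselves differed in the share of peaks near a TSS, with 20.3% in RKO, 29.0% in A549, 46.4% in HCT116 and 49.3% in H460. The part of this makeup in the result was not tested.

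Sequence composition moved with the missing line as well, while no difference in the core motif was resolved. The core was found in 96.1% of regions without RKO, 95.9% without HCT116, 95.1% without H460 and 92.9% without A549, and none of the 6 pairs gave an interval that left out 0. GGGCGG was found in 63.1% of regions without A549, against 38.8% without RKO and 38.4% without HCT116. The median GC content was 69.5% without A549 and 61.25% without RKO. Near a TSS only, GGGCGG no longer differed between the regions without RKO (63.75%) and without A549 by an interval that left out 0 (-4.35 points, -17.8 to 8.83), but did between the regions without HCT116 (41.8%) and those without A549 (68.1%), by -26.3 points (-40.7 to -10.4).

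**Figure D5:**
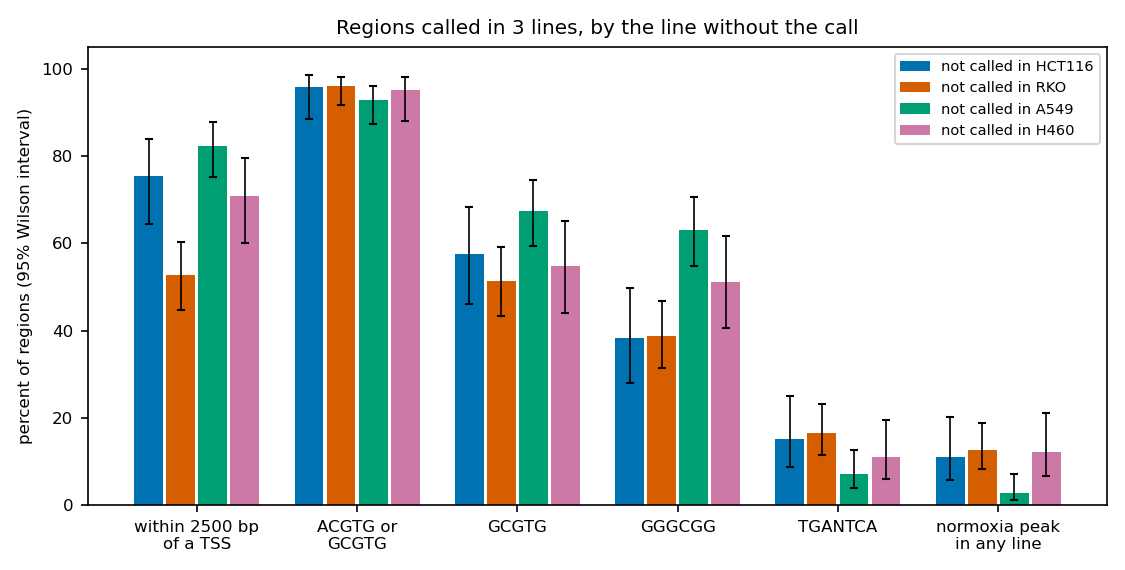
Percent of the 3-line regions with each feature, by the line without the call (73 for HCT116, 152 for RKO, 141 for A549 and 82 for H460), with 95% Wilson intervals. The share near a TSS runs from 52.6% without RKO to 82.3% without A549, while the share with a core motif stays between 92.9% and 96.1%.

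Few of the regions were called in normoxia. A normoxia peak of any line overlapped 41 of 448 regions (9.15%, 6.82 to 12.2), against 1.92% of all hypoxia regions. This was less often than in 4-line regions (24.6%, a difference of -15.4 points, -21.8 to -9.49) and more often than in 2-line regions (5.93%, 3.22 points, 0.47 to 6.47). The measure takes in a normoxia call of any line, and lines without the hypoxia call had almost none, as given below. The number of calling lines thus enters this share by the rule, and its part in the differences was not tested. A549 gave most of the overlaps, with a normoxia peak at 28 of the 307 regions it called in hypoxia, against 8 of 296 in RKO (2.70%), 3 of 366 in H460 (0.820%) and 4 in HCT116 (1.07%).

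The line without a hypoxia call almost never had a normoxia call. It had one at 0 of 73 regions for HCT116, which allows a share of up to 4.11% (3 counts), at 0 of 152 for RKO (up to 1.97%), at 0 of 141 for A549 (up to 2.13%) and at 1 of 82 for H460. The share with a normoxia call was higher with than without the hypoxia call of the line in 3 of 4 lines, by 3.12 ± 4.19 points (SD, n = 4), and the exact two-sided sign-flip test over the lines gave p = 0.25, where 0.125 is the smallest it can give. In A549 the difference was 9.12 points (5.31 to 12.9). The normoxia and hypoxia lists of a line share the same input, so their calls are not independent. In H460, the line that went the other way, 98.8% of the normoxia peaks had no input tag.

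Where the same line had both calls, signal was mostly higher in hypoxia. In A549 it was higher at 28 of 28 regions, by a median ratio of 3.49 (range 1.36 to 7.86), in HCT116 at 4 of 4 (median 3.601) and in H460 at 3 of 3 (median 4.35). In RKO it was higher at 6 of 8, with a median ratio of 1.11 (range 0.746 to 2.92). At CA9 the A549 signal was 6.79 in normoxia and 51.5 in hypoxia, at BNIP3 12.4 and 59.3, at the SLC2A3 intron 17.2 and 76.9, and at PKM 8.73 and 25.8. Since each value is from a merged list, these ratios have no replicate error. The regions were also chosen by their hypoxia calls, which rest on the hypoxia signal, so these counts and ratios are a description.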

How the data were processed

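HIF1A ChIP-seq and input libraries of 4 lines were analysed as deposited HOMER peak lists, in which the authors had merged duplicates. Per the submitters' processing notes, reads were handled with bcl2fastq, FastQC (0.11.5), Bowtie2 (2.2.9), SAMtools (1.3.1), Picard (1.129) and HOMER (4.3), on hg19, which is GRCh37. The file headers give 46569637 to 81528303 tags per hypoxia list. The deposited normalized tag counts are a signal, scaled by the authors to 10000000 tags, and the deposited fold values are a ratio to input or to the surrounding 10000 bp.

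Peaks were joined by half-open coordinates with Python (3.11.15), pandas (2.3.3) and pysam (0.24.0). Nearest TSSs came from GENCODE release 44 on GRCh37, sequences from the GRCh37 genome. Shares carry 95% Wilson and differences 95% Newcombe intervals; these cover counting error only. The 1 test over lines was an exact sign-flip. Named regions are the 5 strongest by mean rank in each group, those at listed genes, and those nearest the definition's edge; regions in gene bodies were added after their values were seen. Joining and intervals were tested on simulated data. The regions and gene lists were chosen with earlier results of these data known. The number of merged duplicates limits precision, and the depth per replicate was not analysed here. One region is not reported here.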

Additional observations from a re-analysis of the deposited data

Results flagged for a closer look

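Over 20 measures compared across the 4 lines, 2 had a line that stood apart from the other 3 by Dixon's criterion, which by chance marks about 1 group in 20. The share of regions with a normoxia call in any line was 2.84% among those without A549, against 10.96% without HCT116, 12.2% without H460 and 12.5% without RKO. A549 gave most normoxia overlaps, at 28 of the 307 regions it called in hypoxia and at 0 of the 141 it did not. The group without A549 thus leaves out the A549 normoxia calls, so this share is not independent of the grouping. In the 4-line regions, the share with a normoxia call of the line itself was 18.5% for A549, against 3.88% for HCT116, 5.17% for RKO and 5.17% for H460. The A549 normoxia list holds 526 peaks, fewer than those of RKO (2092) and H460 (1127).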

How the results depend on the processing

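No paired analysis was possible because the replicates of each line and condition were merged before peaks were called, and for the same reason leaving out a replicate was not possible. Of 297 values recomputed under other settings, 253 kept their direction, their side of 0 or their size. The alternatives with equal list lengths, the end base counted, TSS classes apart, and all those for ACGTG and GCGTG, were chosen after seeing the data.

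When all lists were held to a 14-fold excess over input, the count of 3-line regions was 231, with 31 lacking A549 and 15 lacking H460. The core motif share was then 96.8% without A549 and 100% without H460, and the TSS share 64.9% without RKO and 53.3% without H460, with 0 of 6 pairs differing. The TSS differences were -1.78 points (RKO and HCT116), -12.5 (RKO and A549), 11.6 (RKO and H460, reversed), 24.1 (A549 and H460) and 4.49 (3-line and 2-line). Only 139 of the regions stayed in 3 lines, since peaks were dropped. With a local fold of at least 6, 54 regions lacked H460, with a core share of 98.1%, and the 3-line and 4-line TSS shares differed by -8.11 points, beyond 0.

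The TSS difference of 11.5 points between regions without A549 and without H460 lost its side of 0 in several settings, at 8.90 (local fold), 10.1 (gaps of up to 100 bp joined), 10.8 (peaks recentred to 200 bp), 8.81 (1000 bp) and 7.995 points (lists of equal length). That between 3-line and 2-line regions did so with every transcript start (3.11), 1000 bp (4.95) and lists of equal length (5.08). With every transcript start, 3-line and 4-line regions differed by -7.67 points, and the shares without RKO and A549 were 63.2% and 90.1%. With 1000 bp they were 41.4% without RKO and 61.6% without HCT116.

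The core motif difference from 4-line regions went beyond 0 with recentred peaks (-3.36) and windows of 100 bp (-7.07), where the shares were 90.8% without RKO, 85.1% without A549 and 85.4% without H460, and 1 of 6 pairs differed. The ACGTG difference from 4-line regions lost its side of 0 only far from a TSS (-8.15). The GCGTG difference lost it from 4-line regions with a local fold of 6 (7.57), windows of 100 bp (7.32) and far from a TSS (14.7), and from 2-line regions with a fold of 14 (6.10), a local fold of 6 (5.93), windows of 100 bp (5.18), near a TSS (5.09) and far from one (9.27). The cause of these changes was not tested, apart from the smaller number of regions when peaks were dropped. The normoxia differences kept their side of 0 in every setting, but no setting changed how the number of calling lines enters this share.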

Other observations

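The regions were spread over the chromosomes, with 42 on chromosome 1, 35 on chromosome 19 and 33 on chromosome 3. Counts by chromosome and missing line are too small to compare, and no test was run on them.

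Some regions near a TSS had a peak of the missing line elsewhere around the same TSS. Such a peak lay within 50000 bp of the TSS at 23 of 55 regions for HCT116, 32 of 80 for RKO, 41 of 116 for A549 and 21 of 58 for H460. These counts have no share over all genes beside them, so they are a description and not a result about the regions. Besides those named in the report, EFNA3, an ephrin gene, had a region without RKO and an RKO peak of 5.68 at 794 bp, and NEAT1, a noncoding RNA of paraspeckles, had a region without A549 and an A549 peak of 10.1 at 728 bp. Both were chosen after their values were seen.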
